A study of Caenorhabditis elegans with 39 samples.

Results

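Transposon RNAs were measured in whole *mut-16* mutant animals and whole wild type animals grown at 20°C, by RNA-seq reads that match the consensus sequences of 152 transposon families. The comparison used 6 of the 39 libraries of the series, 3 from wild type and 3 from *mut-16*, and all 152 families in their deposited table were taken, with no choice by value. Wild type animals were the N2 strain, and the mutants carried the single allele *mut-16(pk710)*. Animals of both genotypes were gravid adults of 68 to 70 h, fed *E. coli* OP50, and RNA longer than 200 nt was depleted of ribosomal RNA before directional libraries were made. The same table holds 3 libraries of *prg-1(n4357)* mutants of that age, which shared the fit, and another table holds 9 libraries of the 3 genotypes at 25°C from gravid adults of 54 h, so that temperature and age cannot be told apart there. Whole animals contain soma, germline and embryos, and fewer cells of a type and less RNA per cell cannot be told apart in such bulk samples. The table lists transposons only. The mRNA table that holds wild type whole animals has no *mut-16* whole animals and was not used here, so *mut-16* mRNA and markers of tissues were not compared between the groups.

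*mut-16* encodes a scaffold protein of mutator foci, perinuclear compartments of germ cells in which an RNA-dependent RNA polymerase makes antisense small interfering RNAs, the WAGO-class 22G-RNAs, on target transcripts. These small RNAs are bound by Argonautes of the WAGO group and silence transposons, pseudogenes and many protein-coding genes. Mutator genes were named for the mobilization of DNA transposons in the germline of their mutants. DNA transposons such as Tc1 move by excision and insertion with a transposase, retrotransposons with long terminal repeats (LTRs) and those without them copy themselves through an RNA intermediate, and Helitrons spread by a rolling-circle mechanism. Family names are given here as deposited, without the class label that ends each of them. The suffixes -I and -LTR mark the internal part and the terminal repeat of 1 retrotransposon, so that such families share an element.

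Values are normalized reads per family as deposited. They were not divided by the length of the consensus, which was not used here, so that levels are compared between genotypes and not between families. The 152 families summed to 103392, 154479 and 98127 normalized reads in wild type replicates 1, 2 and 3 and to 116802, 112930.2 and 106675 in *mut-16*. Wild type replicate 2 stood above the other libraries. Each value was a whole multiple of 1 step per library, and if 1 step is 1 read, the 6 libraries hold 84322 to 145213 reads on transposons each. A low family would then rest on few reads, and values near 0 carry a large counting error.

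A family was tested where its value reached 10 in at least 3 of the 9 libraries of the fit, which 129 families did. It was called where the Benjamini-Hochberg adjusted p of limma was below 0.05 and the fold change at least 1.3, with log2 changes taken on normalized reads plus 1. In *mut-16*, 31 of the 129 families were higher (24.0%) and 2 were lower (1.55%), or 25.6% of those tested in either direction. Among the 31, 17 were at least 2-fold higher and 9 were at least 4-fold higher. CER15-1-LTR_CE and NPALTA1_CE, both among the 31, reached 10 in the *mut-16* libraries only. They entered the test through their high values in that group. CER12-1-LTR_CE, also among the 31, reached 10 in the *mut-16* libraries, in *prg-1* replicate 3 (12.3) and in no wild type library. Its entry thus also depended on its high *mut-16* values. The remaining 96 families tested had no call, and the median log2 change over all 129 was 0.21. In 46 families (35.7%) all 3 *mut-16* libraries lay above all 3 wild type libraries, and in 5 families (3.88%) all lay below.

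The size of these counts depended on how the libraries were scaled. With factors computed over the families themselves the median change moved from 0.21 to -0.04 log2 (relative log expression, RLE) or -0.02 (trimmed mean of M values, TMM), and the split became 16 higher and 8 lower with RLE and 16 higher and 7 lower with TMM. The same 16 families were higher under both and under the deposited scaling, and 16 of 16 of these were also higher when each of the 9 libraries was left out in turn. They were MIRAGE1, CEMUDR1, Chapaev-2_CE, TURMOIL2, TC5, Tc3, MARINCE1, TC1A, CER8-I_CE, CER9-I_CE, CER15-I_CE, CER3-LTR_CE, CER3-1-LTR_CE, CER10-LTR_CE, CER2-LTR_CE and CER12-1-LTR_CE. Both families called lower, CER10-I_CE and NeSL-1, were lower in these fits too.

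**Figure D1:**
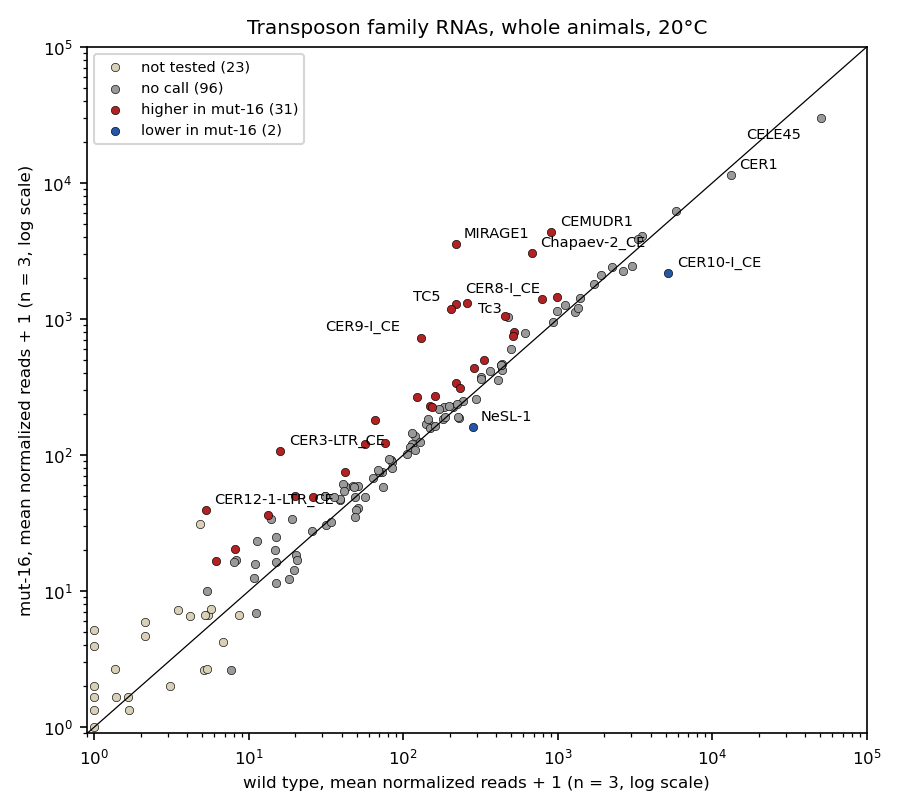
Mean normalized reads plus 1 of each of the 152 families in *mut-16* (vertical axis) against wild type (horizontal axis), both on log scales, n = 3 libraries each, coloured by call. The 31 families called higher sit above the line of equal values, MIRAGE1 farthest, and the 2 called lower, CER10-I_CE and NeSL-1, sit below it.

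DNA transposons of the named superfamilies held the family with the largest change. MIRAGE1, labelled as an EnSpm element, a cut-and-paste superfamily also found in plants, was at 214, 174 and 264 normalized reads in wild type and at 3945, 3209 and 3459 in *mut-16*. The lowest mutant library was far above the highest wild type library, and the fold change was 16.4 (log2 change 4.03 ± 0.17 SE, adjusted p = 5.1e-11, limma). CEMUDR1, of the MuDR superfamily of Mutator-like elements, was at 915, 966 and 851 in wild type and 5289, 3869 and 3977 in *mut-16* (log2 change 2.25 ± 0.12 SE, adjusted p = 3.1e-10, limma). Chapaev-2_CE, a cut-and-paste element, was at 707, 590.4 and 739 in wild type and 3519, 2688 and 2996 in *mut-16* (log2 change 2.17 ± 0.13 SE, adjusted p = 8.9e-10, limma). In both, *mut-16* replicate 1 was the highest of the 6 libraries and the groups lay wide apart.

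TURMOIL2, a Harbinger element, rose 2.30-fold, from 441, 470.2 and 462 in wild type to 989.8, 1076 and 1097 in *mut-16* (log2 change 1.20 ± 0.13 SE, adjusted p = 3.5e-06, limma). LONGPAL3, labelled MuDR, was at 164, 181 and 100.1 in wild type and 256, 236 and 194 in *mut-16* (log2 change 0.65 ± 0.20 SE, adjusted p = 0.023, limma). Mutant replicate 3 lay close to the highest wild type library, and the call ended without wild type replicate 3, *mut-16* replicate 1 or *mut-16* replicate 2 (adjusted p = 0.091, 0.098 and 0.071, limma). The RLE and TMM factors ended the call as well (adjusted p = 0.112 and 0.111, limma). Relatives of these elements had no call. Chapaev-1_CE, the most abundant family by reads in this class, was at 3582, 3051 and 3256 in wild type and 4544, 3633 and 3529 in *mut-16* (log2 change 0.24 ± 0.13 SE, adjusted p = 0.22, limma, no call). CEMUDR2 had a log2 change of -0.29 and TURMOIL1 one of -0.25, neither with a call in the deposited scaling, and both were lower with the RLE and TMM factors. Limma called 5 of the 18 families tested in this class higher (27.8%, near the 24.0% of all families tested) and 0 lower. At an unadjusted p below 0.05 (limma) the counts were 6 and 1. The median log2 change was 0.10 against 0.21 over all families tested.

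Over the 24 families of the class, reads summed to 11239, 12470.0 and 10895 normalized reads in wild type and to 23473, 20717 and 20060.3 in *mut-16*, a ratio of means of 1.86. The groups did not overlap. MIRAGE1, CEMUDR1 and Chapaev-2_CE gave most of the difference.

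Tc1 and mariner elements are short cut-and-paste transposons with terminal inverted repeats around 1 transposase gene. Limma called 6 of the 13 families tested in this class higher (46.2%, against 24.0% of all families tested) and 0 lower. The counts at an unadjusted p below 0.05 (limma) were 7 and 2, and the median log2 change was 0.58. TC5, a transposase-encoding element, was at 192, 221 and 192 normalized reads in wild type and at 1164, 1219 and 1169 in *mut-16*, 5.86-fold higher (log2 change 2.55 ± 0.12 SE, adjusted p = 8.2e-11, limma). The 3 libraries of either genotype were close together. Tc3, another element with a transposase of its own, was at 242, 266 and 270.0 in wild type and 1319.8, 1243 and 1383 in *mut-16* (log2 change 2.34 ± 0.10 SE, adjusted p = 6e-11, limma). MARINCE1, a mariner family, was at 58.1, 59.6 and 78.0 in wild type and 196, 165 and 176 in *mut-16* (log2 change 1.45 ± 0.16 SE, adjusted p = 4.5e-06, limma). In all 3 families the groups lay far apart.

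Tc1, whose mobilization in the germline is the classic readout of mutator activity, has 2 families in the table. TC1A was at 699, 853 and 820.4 normalized reads in wild type and 1123, 1525 and 1540.2 in *mut-16* (log2 change 0.81 ± 0.15 SE, adjusted p = 0.00091, limma). TC1 was at 279, 288 and 298 in wild type and 434, 398 and 487 in *mut-16* (log2 change 0.60 ± 0.12 SE, adjusted p = 0.0013, limma). All mutant libraries were above all wild type libraries in both, with fold changes of 1.75 and 1.52, and the call of TC1 ended with the RLE and TMM factors (log2 change 0.35 and 0.37). MARINER2_CE was at 313, 373 and 307 in wild type and 392, 528 and 583 in *mut-16* (log2 change 0.58 ± 0.15 SE, adjusted p = 0.0091, limma), and its call ended without *mut-16* replicate 3 (adjusted p = 0.064, limma). That call also ended with the RLE and TMM factors (adjusted p = 0.105 and 0.107, limma).

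The other numbered Tc families had no call. TC2 was at 38.4, 53.2 and 52.4 in wild type and 47.9, 31.9 and 22.3 in *mut-16* (log2 change -0.54 ± 0.24 SE, adjusted p = 0.13, limma, no call), with overlapping groups, and it was called lower with the RLE factors (log2 change -0.78, adjusted p = 0.032, limma) and without *mut-16* replicate 1 (-0.81, adjusted p = 0.016). TC5A was at 3015, 2982 and 3094 in wild type and 2669, 2452 and 2196 in *mut-16*. Its mutant libraries were all below the wild type ones, by less than the 1.3-fold required (log2 change -0.32 ± 0.11 SE, adjusted p = 0.046, limma), and it passed as lower with the RLE factors (-0.57) and without *mut-16* replicate 1 (-0.38, adjusted p = 0.020). TC5B, a low family, was at 12.8, 18.1 and 23.3 in wild type and 27.5, 31.9 and 39.5 in *mut-16* (log2 change 0.86 ± 0.33 SE, adjusted p = 0.074, limma, no call). Its groups did not overlap, and it was called higher with the replicate number as a block in the fit (adjusted p = 0.018, limma), without wild type replicate 3 (0.048) and without *prg-1* replicate 1 (0.044). TC6, a palindromic element, was at 1714, 1724 and 1691 in wild type and 1984, 1683 and 1734 in *mut-16*, with no call (log2 change 0.07 ± 0.10 SE, adjusted p = 0.64, limma).

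TC4, a foldback element with long inverted repeats that is labelled a DNA transposon without a superfamily, was more than 2-fold higher in every mutant library than the mean of wild type, yet it had no call in the fit of 9 libraries. It was at 433, 495 and 498 normalized reads in wild type and at 1131, 1009 and 983 in *mut-16* (log2 change 1.13 ± 0.67 SE, adjusted p = 0.28, limma, no call). The *prg-1* libraries were at 434, 2509 and 437, and replicate 2 of them stood alone. With the 6 wild type and *mut-16* libraries only, the log2 change was again 1.13, with an adjusted p of 1.7e-06 (limma), and without *prg-1* replicate 2 the adjusted p was 7.4e-07.

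**Figure D2:**
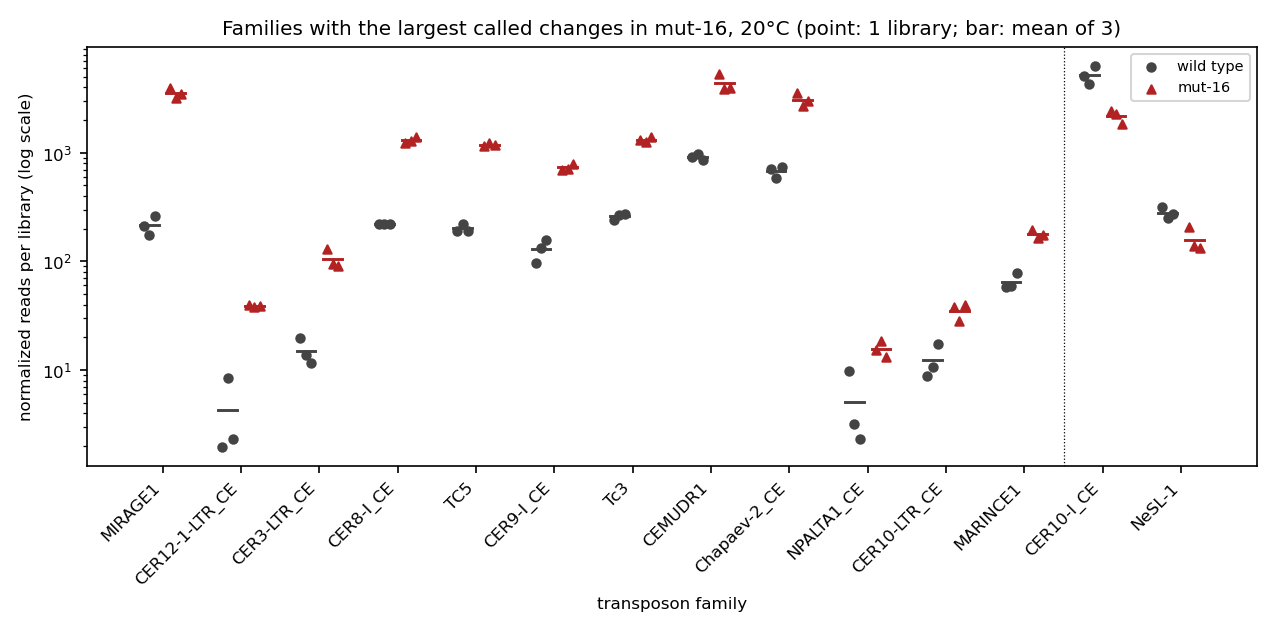
Normalized reads per library (vertical axis, log scale) of the 12 families with the largest called rise and of the 2 families called lower, wild type as circles and *mut-16* as triangles, with a bar at each mean of 3. In each of the 14 families the 3 *mut-16* points lie on 1 side of the 3 wild type points.

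LTR retrotransposons, which encode Gag and a reverse transcriptase between their repeats, gave the most calls. The class has 42 families, of which 29 were tested. Of these 14 were higher (48.3%, against 24.0% of all families tested), 1 was lower and 14 had no call, with a median log2 change of 0.79. Terminal repeats counted 7 higher of 15 tested and internal parts 7 higher and 1 lower of 13 tested, so that the calls came from both kinds of part. CER5-I_CE, chosen after its values were seen, was at 6.89, 17.0 and 15.1 in wild type and 11.2, 37.6 and 49.6 in *mut-16*, with overlapping groups (log2 change 1.13 ± 0.58 SE, adjusted p = 0.19, limma). It was called higher with the replicate block (adjusted p = 0.0026, limma) and without *mut-16* replicate 1 (0.0097).

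CER8-I_CE, an internal part, was at 219, 220.2 and 221 normalized reads in wild type and at 1218, 1275 and 1399.6 in *mut-16* (log2 change 2.55 ± 0.12 SE, adjusted p = 6e-11, limma). Its terminal repeat CER8-LTR_CE was at 26.6, 33.0 and 16.3 in wild type and 40.7, 41.5 and 61.7 in *mut-16* (log2 change 0.93 ± 0.31 SE, adjusted p = 0.037, limma). The call of the repeat was near the threshold and was kept in 3 of the 9 fits that left out 1 library. It ended without wild type replicate 1 (adjusted p = 0.061, limma) or 3 (0.157), without *mut-16* replicate 1 (0.0501), 2 (0.056) or 3 (0.150) and without *prg-1* replicate 3 (0.057). CER9-I_CE was at 96.4, 134 and 158 in wild type and 689, 708 and 794 in *mut-16* (log2 change 2.51 ± 0.27 SE, adjusted p = 4e-05, limma), and its repeat CER9-LTR_CE at 25.6, 35.1 and 30.3 in wild type and 45.8, 32.8 and 67.8 in *mut-16*, with no call (log2 change 0.62 ± 0.29 SE, adjusted p = 0.14, limma). The internal part thus separated the genotypes more widely than the repeat in both elements, although the difference between the parts was not tested.

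Terminal repeats with few reads also had large changes. CER12-1-LTR_CE was at 1.97, 8.51 and 2.33 in wild type and at 39.7, 37.6 and 38.5 in *mut-16* (log2 change 3.12 ± 0.48 SE, adjusted p = 0.00012, limma). The wild type values are low, and the change depends on the 1 added before the logarithm, being 2.30 with 5 added. CER3-LTR_CE was at 19.7, 13.8 and 11.6 in wild type and 130.3, 94.6 and 91.1 in *mut-16* (log2 change 2.74 ± 0.27 SE, adjusted p = 1.2e-06, limma), and its variant CER3-1-LTR_CE at 168, 177 and 134 in wild type and 309.6, 241 and 257 in *mut-16* (log2 change 0.75 ± 0.15 SE, adjusted p = 0.0014, limma). Neither overlapped between the genotypes. With 5 added, CER3-LTR_CE had a change of 2.46, and both it and CER12-1-LTR_CE then ranked below CER8-I_CE and TC5, each at 2.53.

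Further elements rose by 1.46-fold to 2.46-fold. CER2-LTR_CE was at 51.2, 62.8 and 52.4 in wild type and 113, 123 and 120.4 in *mut-16* (log2 change 1.09 ± 0.24 SE, adjusted p = 0.003, limma), and CER2-I_CE at 536, 429.8 and 587 in wild type and 795, 747 and 848 in *mut-16* (log2 change 0.63 ± 0.13 SE, adjusted p = 0.0021, limma). CER15-I_CE was at 95.4, 163 and 109 in wild type and 243, 267 and 288 in *mut-16* (log2 change 1.15 ± 0.19 SE, adjusted p = 0.00022, limma). The other 4 were CER16-2-I_CE (0.55), CER7-I_CE (0.85), CER6-I_CE (1.22) and CER15-1-LTR_CE (2.46-fold), the first 3 with their log2 changes. CER6-I_CE ran from 29.5 to 76.9 across the mutant libraries, and its call ended without *mut-16* replicate 3 (adjusted p = 0.081, limma) or wild type replicate 1 (0.055). CER15-1-LTR_CE reached 10 in the *mut-16* libraries only, and without any 1 of them it was too low to test. It was called with an adjusted p of 0.037 (limma), just inside the threshold, which it missed without wild type replicate 1 (0.096) or 2 (0.072). CER2-1-LTR_CE lay just outside it, at 4.92, 6.38 and 10.5 in wild type and 17.3, 16.4 and 14.2 in *mut-16* (log2 change 1.09 ± 0.42 SE, adjusted p = 0.071, limma), and passed without wild type replicate 3 (0.042) and in the 6 libraries with the replicate block (0.044). The calls of CER2-I_CE, CER16-2-I_CE, CER7-I_CE, CER6-I_CE, CER8-LTR_CE and CER15-1-LTR_CE ended with the RLE and TMM factors.

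CER10 was called in opposite directions in its parts. The internal part CER10-I_CE was at 5101, 4251 and 6275 normalized reads in wild type and at 2413, 2294 and 1845 in *mut-16*, and the highest mutant library was below the lowest wild type library (log2 change -1.24 ± 0.14 SE, adjusted p = 4.7e-06, limma). The terminal repeat CER10-LTR_CE was at 8.86, 10.6 and 17.5 in wild type and at 37.7, 28.0 and 39.5 in *mut-16* (log2 change 1.47 ± 0.32 SE, adjusted p = 0.0026, limma). Both calls were kept with the RLE and TMM factors and without each library in turn. The reads of the repeat were few beside those of the internal part, and reads could match more than 1 consensus, which was not tested.

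CER1, a Gypsy element whose Gag particles are found in the adult germline, was among the families with the most reads and had no call. It was at 15017, 11152 and 13646 in wild type and 13424, 10047 and 10817 in *mut-16*, with overlapping groups (log2 change -0.22 ± 0.18 SE, adjusted p = 0.38, limma). Its repeat LTRCER1 was at 1385, 1137 and 1349.9 in wild type and 1285, 1031 and 1059 in *mut-16*, also with no call (log2 change -0.20 ± 0.15 SE, adjusted p = 0.34, limma). Over the class, reads summed to 25953, 26144 and 26367 in wild type and 25179.8, 26367 and 22967 in *mut-16*, overlapping between the genotypes, and CER1, CER3-I_CE and CER10-I_CE supplied most of them. The other 13 families of the class were not tested for low values. CER4-LTR_CE was listed at 0 in all 9 libraries. CER11-LTR_CE, CER13-LTR_CE and LTR2_CE were listed at 0 in all wild type libraries, and in *mut-16* the highest values of the 3 were 2.04, 10.6 and 1.02. The other 10 families not tested were 6 of the named DNA superfamilies, 2 non-LTR retrotransposons, 1 Mariner/Tc1 family and 1 DNA transposon without a superfamily. Of these NPAL0A_CE and PAL8C_1 were listed at 0 in all wild type libraries and reached at most 4.83 and 1.01 in *mut-16*.

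Non-LTR retrotransposons showed no rise that was called. Limma called 0 of the 13 families tested higher and 1 lower, against 24.0% and 1.55% of all families tested. The counts at an unadjusted p below 0.05 (limma) were 1 and 1, and the median log2 change was 0.04. NeSL-1, which inserts into spliced leader genes, was at 316, 251 and 275 normalized reads in wild type and 206, 139 and 132 in *mut-16* (log2 change -0.84 ± 0.18 SE, adjusted p = 0.0021, limma). All 3 mutant libraries were below all 3 wild type libraries. RTE-1, which encodes a reverse transcriptase and an endonuclease, was at 417, 429.8 and 435 in wild type and 444, 457 and 483 in *mut-16* (log2 change 0.11 ± 0.10 SE, adjusted p = 0.45, limma, no call). The 7 LINE2 families tested had log2 changes from -0.31 (LINE2A_CE) to 0.38 (LINE2F_CE), none of them called, and LINE2C_CE and LINE2E_CE were too low to test.

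CELE45, labelled a tRNA-derived short interspersed element, gave more reads than any other family and set the totals. It was at 36825, 83011 and 31529.7 normalized reads in wild type and at 30814, 30280.2 and 28746 in *mut-16*. The mutant libraries were close together and all below wild type, in which replicate 2 was more than 2-fold above the others (log2 change -0.62 ± 0.34 SE, adjusted p = 0.22, limma, no call). It was called lower where the 6 libraries alone were fitted with the replicate block (adjusted p = 0.035, limma). CELE45 made up 53.7% of the transposon reads of wild type replicate 2 and 26.4 to 35.6% of those in the other 5 libraries.

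The sum over all families was 118666 ± 31126 in wild type and 112136 ± 5109.9 in *mut-16* (SD, n = 3), a log2 ratio of -0.08 that was 0.15 without wild type replicate 2. Without CELE45 the sums were 66567, 71468 and 66597 in wild type and 85988, 82650.0 and 77929 in *mut-16*. In this deposited scaling all mutant libraries were higher, with a ratio of means of 1.20. The RLE factors were 0.903, 1.01 and 0.891 in wild type and 1.11, 1.14 and 1.08 in *mut-16*. Division by them lowers this ratio, and whether the groups stay apart under them was not tested. With 3 libraries against 3 an exact permutation test cannot go below p = 0.1, and none is given.

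**Figure D3:**
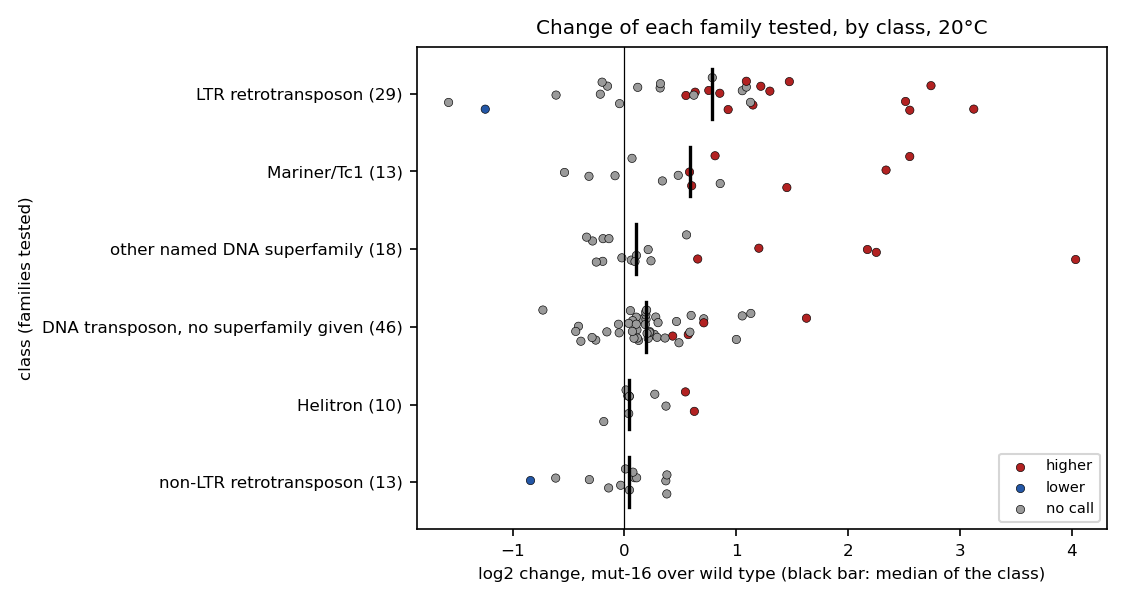
Log2 change in *mut-16* over wild type (horizontal axis) of the 129 families tested, 1 point each, in rows by class with the number tested, coloured by call, with a black bar at each class median. The medians lie at 0.79 for LTR retrotransposons and 0.58 for Mariner/Tc1 and between 0.04 and 0.19 for the other 4 classes.

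The largest class, DNA transposons with no superfamily in the label, holds mostly short palindromic and nonautonomous repeats without a transposase. Limma called 4 of its 46 families tested higher (8.70%, against 24.0% of all families tested) and 0 lower. The counts at an unadjusted p below 0.05 (limma) were 6 and 0, and the median log2 change was 0.19. NPALTA1_CE was at 9.84, 3.19 and 2.33 in wild type and 15.3, 18.3 and 13.2 in *mut-16* (log2 change 1.63 ± 0.49 SE, adjusted p = 0.022, limma). These are few reads, and the call ended without wild type replicate 2 (adjusted p = 0.052, limma) or 3 (0.088). Only the *mut-16* libraries reached 10, and without any 1 of them the family was too low to test. TIR21T5A_CE (0.71), TIR23T5A_CE (0.57) and NTC2A (0.43) rose by 1.63-fold, 1.48-fold and 1.35-fold. TIR23T5A_CE lost its call without wild type replicate 1 or *mut-16* replicate 1 (adjusted p = 0.060 and 0.0501, limma), and NTC2A without wild type replicate 1 or 3 or *mut-16* replicate 2 or 3 (0.060, 0.088, 0.136 and 0.075). All 4 calls ended with the RLE and TMM factors. TIR9TA1A_CE, chosen after its values were seen, was at 6.89, 9.57 and 4.65 in wild type and 22.4, 13.5 and 10.1 in *mut-16*, with no overlap (log2 change 1.00 ± 0.39 SE, adjusted p = 0.074, limma). It passed as higher with the replicate block (adjusted p = 0.048, limma), without wild type replicate 2 (0.041) and without *mut-16* replicate 3 (0.0496). PAL5A_CE, the family of this class with the most reads, was at 5726, 6582 and 5218 in wild type and 6855, 5998 and 5711 in *mut-16*, with no call (log2 change 0.09 ± 0.13 SE, adjusted p = 0.66, limma).

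Among Helitrons, limma called 2 of 10 families higher (20%, near the 24.0% of all families tested) and 0 lower. The counts at an unadjusted p below 0.05 (limma) were 3 and 0. The median log2 change was 0.04, against 0.21 over all families tested. NDNAX2_CE was at 204, 274 and 183 in wild type and 308, 398 and 308 in *mut-16* (log2 change 0.62 ± 0.18 SE, adjusted p = 0.015, limma), and NDNAX3_CE at 508, 539 and 482 in wild type and 766, 747 and 717 in *mut-16* (log2 change 0.54 ± 0.10 SE, adjusted p = 0.00088, limma). The groups did not overlap in either. The other 8 families, all those with Helitron in the name among them, had no call, and HELITRONY4_CE, with the most reads, was at 803, 1079 and 899.6 in wild type and 1034, 905 and 909.8 in *mut-16*. The calls on NDNAX2_CE and NDNAX3_CE ended with the RLE and TMM factors, and that on NDNAX2_CE also without wild type replicate 1 or 3 or *mut-16* replicate 2 (adjusted p = 0.060, 0.067 and 0.089, limma).

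*prg-1* encodes the Piwi protein that binds piRNAs, which direct targets into the 22G-RNA pathway, and its mutant lies upstream of *mut-16* for those targets. Tested against *prg-1* at 20°C, *mut-16* was higher in 26 of 129 families (20.2%) and lower in 2 (1.55%), or 21.7% in either direction. Of the 31 families higher in *mut-16* than in wild type, 20 were also higher than in *prg-1* and 11 had no call between the mutants. The 31 were picked by the same *mut-16* libraries. That choice favours values above *prg-1*, so the 20 are not separate support. MIRAGE1 was at 297, 223 and 340.3 in *prg-1*, below all *mut-16* libraries (log2 difference 3.64 ± 0.17 SE, adjusted p = 1.1e-10, limma for *mut-16* over *prg-1*). TC5 (2.52), CER9-I_CE (2.32) and CER8-I_CE (2.24) differed by more than 4-fold between the mutants. Tc3 was between wild type and *mut-16*, at 662, 609 and 609 (log2 difference 1.07 ± 0.10 SE, adjusted p = 5.8e-07, limma). TC1A was at 972, 1384 and 1363 and did not separate the mutants (log2 difference 0.17 ± 0.15 SE, adjusted p = 0.44, limma, no call).

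The comparisons of each mutant with wild type share their 3 wild type libraries, and *prg-1* had 10 families higher (7.75%) and 10 lower (7.75%), or 15.5% in either direction. With library totals made equal that split was 19 higher and 7 lower, and that between the mutants 20 higher and 5 lower. Called in opposite directions in the 2 mutants were 5 families. TURMOIL2 was at 157, 123 and 108 in *prg-1*, below wild type, while *mut-16* was above it (log2 difference 3.04 ± 0.13 SE, adjusted p = 9.4e-11, limma between the mutants). CER2-LTR_CE was at 9.38, 13.4 and 18.5 (log2 difference 3.07 ± 0.24 SE, adjusted p = 5.1e-08, limma) and CER2-I_CE at 205, 161 and 189.5 (log2 difference 2.11 ± 0.13 SE, adjusted p = 3.4e-09, limma). CER15-I_CE was at 59.1, 70.4 and 73.2 and CER16-2-I_CE at 556, 472 and 452, and *mut-16* exceeded *prg-1* in both (log2 difference 1.97 and 1.55). In each of the 5 families the 3 genotypes had separate ranges, with *prg-1* lowest and *mut-16* highest.

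CER10-I_CE and NeSL-1 were lower in both mutants. CER10-I_CE was at 1274, 1137 and 1331 in *prg-1*, and *mut-16* lay above it (log2 difference 0.80 ± 0.14 SE, adjusted p = 0.00045, limma). CER1 was at 6699, 4884 and 5855 in *prg-1*, below its level in *mut-16* (log2 difference 0.98 ± 0.18 SE, adjusted p = 0.00048, limma). The 2 families in which *mut-16* was below *prg-1* were TC2 and CER16-I_CE. TC2 was at 188, 163 and 179.8 in *prg-1* (log2 difference -2.41 ± 0.24 SE, adjusted p = 8.1e-07, limma). CER16-I_CE, a low family, was at 12.2, 12.5 and 14.1 in *prg-1* and 0, 2.9 and 2.02 in *mut-16* (log2 difference -2.61 ± 0.63 SE, adjusted p = 0.005, limma). CER16-I_CE reached 10 in the *prg-1* libraries only and entered the test through its high values there. Without any 1 of them it was too low to test.

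**Figure D4:**
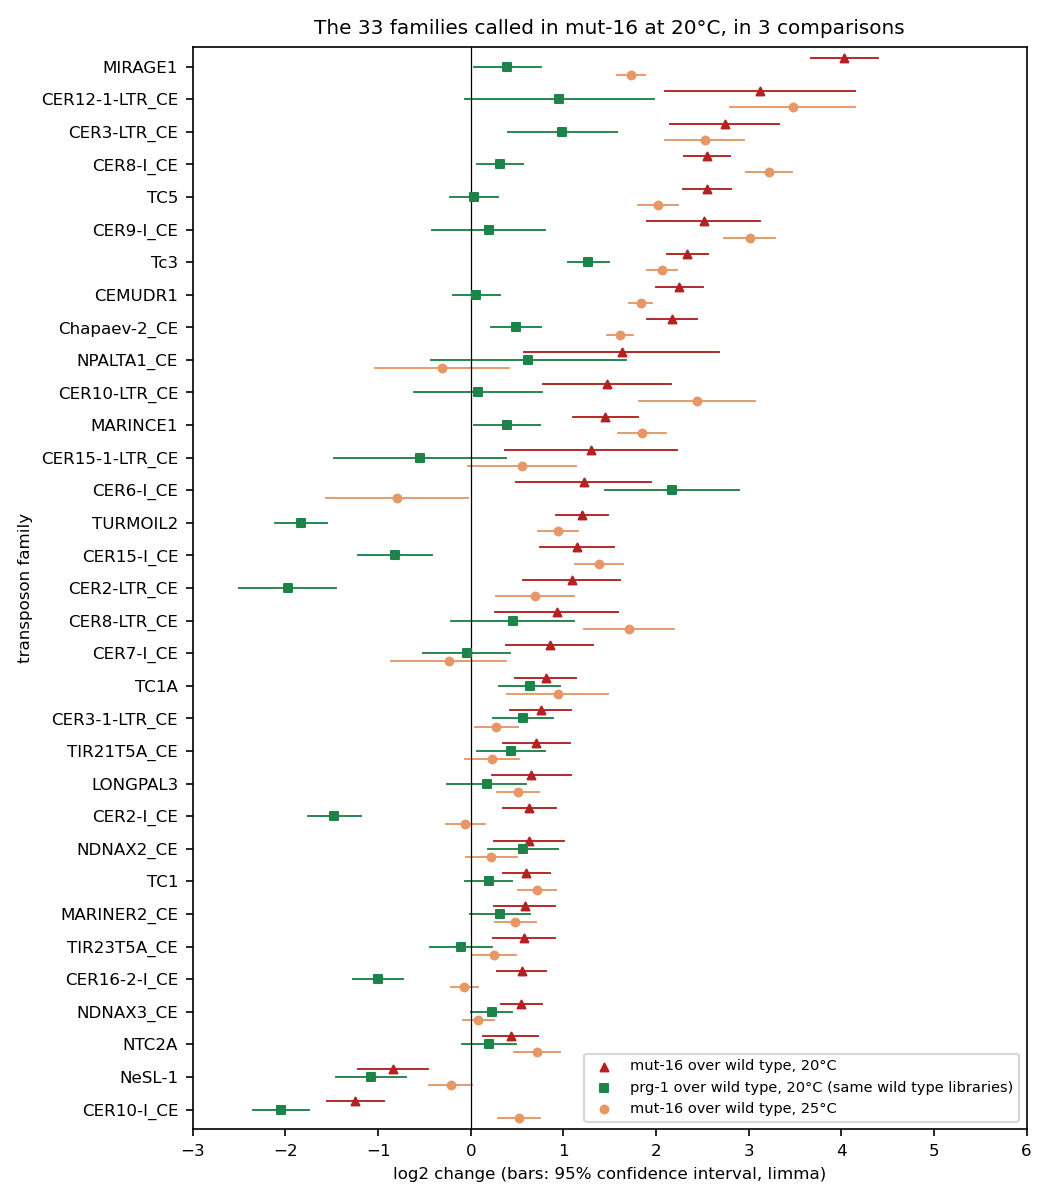
Log2 change with its 95% confidence interval (horizontal axis, limma) of the 33 families called in *mut-16* at 20°C, for *mut-16* over wild type at 20°C, *prg-1* over the same wild type libraries, and *mut-16* over wild type at 25°C. TURMOIL2, CER2-LTR_CE, CER2-I_CE, CER15-I_CE and CER16-2-I_CE lie on opposite sides of 0 in the 2 mutants at 20°C, and CER10-I_CE lies on opposite sides of 0 at the 2 temperatures in *mut-16*, both in the deposited scaling.

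At 25°C, in a table scaled on its own, 35 of 130 families were higher in *mut-16* (26.9%) and 2 were lower (1.54%), or 28.5% in either direction, and with library totals made equal there the split was 21 higher and 47 lower. Families higher at both temperatures numbered 20, which is 64.5% of those higher at 20°C and 57.1% of those higher at 25°C. All 9 families that were at least 4-fold higher at 20°C were among them. With library totals made equal at 25°C, 14 of the 31 were higher there and 3 were lower, CER2-I_CE, CER6-I_CE and CER16-2-I_CE, and the 9 stayed higher. MIRAGE1 was at 919.7, 976 and 1034 in wild type and 3242, 3108 and 3361 in *mut-16* at 25°C, a log2 change of 1.73 against 4.03 at 20°C. CER8-I_CE had changes of 3.22 at 25°C and 2.55 at 20°C, CER9-I_CE of 3.01 and 2.51, and Tc3 of 2.07 and 2.34. These differences between temperatures were not tested, because the tables were scaled apart.

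The other 11 families higher at 20°C had no call at 25°C. Among them were NPALTA1_CE (1.63 at 20°C, -0.31 at 25°C), CER6-I_CE (1.22, -0.80), CER7-I_CE (0.85, -0.24) and CER3-1-LTR_CE (0.75, 0.28). NeSL-1 had no call at 25°C either (-0.21). CER10-I_CE was called in the opposite direction there, at 1381, 1434 and 1631 in wild type and 1785, 2149 and 2481 in *mut-16* (log2 change 0.52, adjusted p = 0.0016, limma). That call was kept with RLE (0.42) and TMM factors (0.41) and ended with library totals made equal (0.08, adjusted p = 0.63, limma). TC4 was higher at 25°C, at 385, 423 and 427 in wild type and 1348, 1156 and 1264 in *mut-16* (log2 change 1.61, adjusted p = 1.4e-12, limma), where no *prg-1* library stood apart.

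Single libraries set the values of some families at 20°C. CER3-I_CE, the internal part of CER3, was at 1690.4, 6725 and 2076 normalized reads in wild type and 2144, 7144 and 3009.6 in *mut-16* (log2 change 0.32 ± 0.68 SE, adjusted p = 0.77, limma, no call). Replicate 2 stood above the other libraries in both genotypes, 3.57-fold above their mean in wild type and 2.77-fold in *mut-16*. Merlin1m_CE, of the Merlin superfamily and chosen after its values were seen, showed the same libraries on top, at 634, 2396 and 1019 in wild type and 464, 2099 and 1065 in *mut-16* (log2 change -0.19 ± 0.69 SE, adjusted p = 0.86, limma, no call). In *prg-1* replicate 2 did not stand apart in either family. At 25°C CER3-I_CE was at 444, 674 and 412 in wild type and 2329, 2174 and 2570.5 in *mut-16*, with separate groups (log2 change 2.24, adjusted p = 0.0008, limma). TIR43YW1_CE, with no call at 20°C, was at 111, 318 and 80.3 in wild type and 252, 221 and 174 in *mut-16*. Without wild type replicate 2 it was called higher (log2 change 1.16, adjusted p = 0.00035, limma), as were PALTTTAAA2 (0.016) and PALTA3_CE (0.020). That fit called 36 families higher and 3 lower and kept 31 of the 33 calls.

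CER13-I_CE was nearly absent at 20°C except in 1 library. It was at 3.94, 5.32 and 2.33 in wild type and at 1.02, 86.9 and 3.04 in *mut-16*, and it was not tested there. Its repeat CER13-LTR_CE, listed at 0 in wild type, was at 1.02, 10.6 and 1.01 in *mut-16*, highest in the same library. At 25°C all *mut-16* libraries were high, with CER13-I_CE at 98.3, 161 and 160.1 against 14.2, 12.7 and 5.03 in wild type (log2 change 3.67, adjusted p = 0.0008, limma). CER12-I_CE likewise was at 1.02, 3.86 and 0 in *mut-16* at 20°C, not above wild type at 6.89, 3.19 and 2.33, and at 51.7, 63.4 and 42.2 against 2.83, 7.26 and 7.05 at 25°C (log2 change 3.06). Whether more libraries at 20°C would hold the reads seen in *mut-16* replicate 2 was not tested.

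**Figure D5:**
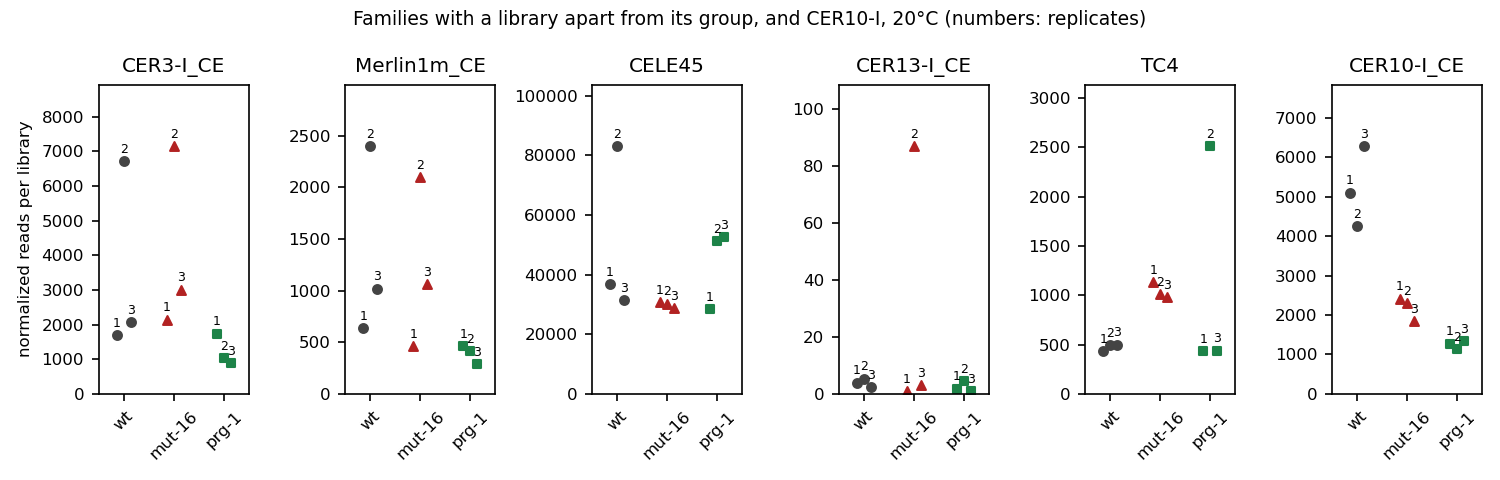
Normalized reads per library at 20°C (vertical axes, each from 0 and each on its own scale) of 6 families in wild type, *mut-16* and *prg-1*, with the replicate number above each point. Replicate 2 of wild type and of *mut-16* is on top in CER3-I_CE and Merlin1m_CE, *mut-16* replicate 2 alone is high in CER13-I_CE, *prg-1* replicate 2 alone is high in TC4, and CER10-I_CE has separate groups.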

How the data were processed

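Deposited values were taken as signal, normalized reads per family: the authors trimmed reads with Trimmomatic 0.35, mapped them with STAR 2.5.0a to transposon consensus sequences and counted them with SAMtools (1.6 in the processing notes), and how the deposited signal was scaled is not given in the sources used here. The authors named DESeq2 1.18.1 for differential expression. The deposited tables used were 2 of 6, with 0 sample columns left unused, and every value was a whole multiple of 1 step per library (0.965 to 1.16 in the 6 libraries compared, tolerance 0.01). Confidence intervals come from the spread between libraries.

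Values plus 1 were fitted on the log2 scale with limma 3.58.1 (R 4.3.3; lmFit and eBayes with trend and robust moderation), 9 libraries per temperature in 1 fit, for families at 10 or more in at least 3 libraries. The fit was tested on simulated data. Families were called at an adjusted p (Benjamini-Hochberg) under 0.05 with at least a 1.3-fold change. Planned tests on read counts were not run, because the deposited values are not counts and hold too few low values to establish that 1 step is 1 read. Classes came from the class label in each deposited family name, in place of the planned patterns in the names. Named families were the called changes in *mut-16* at 20°C up to the 12 largest in each direction, described elements (numbered Tc, MIRAGE1, CER1, RTE-1, LINE2), the 5 with the highest wild type mean and the highest of each class, those called in opposite directions in *prg-1* or at 25°C, up to 6 largest called differences from *prg-1* in each direction, those next to the thresholds, those at 0 in all wild type libraries only, and up to 6 of the largest calls at 1 temperature only. Every other family named, including the remaining calls, was chosen after its values were seen. The members and lists were chosen with earlier results of these data known.

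Replicate numbers are shared by the groups, and the sources do not say what they mark. Residuals of equal number correlated by 0.215, 0.249 and 0.214 across families between wild type and *mut-16* at 20°C, and those of unequal number by -0.150 to -0.0390. Equal pairs with *prg-1* correlated by 0.0898, 0.125 and 0.113 for wild type and 0.308, 0.240 and 0.131 for *mut-16*. Unequal pairs with *prg-1* ran from -0.0745 to -0.0106 for wild type and from -0.279 to 0.0803 for *mut-16*. Residuals were centred within each group, which pushes unequal pairs below 0 where equal pairs lie above it. At 25°C the equal pairs of wild type and *mut-16* correlated by 0.085, 0.145 and 0.096, and those with *prg-1* by -0.115 to 0.175. These values do not settle whether the numbers pair the libraries, so the fit was also run with the replicate block. The reported values come from the planned fit without the replicate block, in which 33 families were called. With the block 36 were called, and 39 in the 6 libraries alone. The blocked value is given where it changes a call. Nothing in the labels says that the replicates came from separate cultures, and p-values measure the spread between these libraries.

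Alternatives were RLE and TMM factors over the families, equal library totals, pseudocounts of 0.5 and 5, other low-value filters, no fold threshold, the replicate block, only the 6 libraries, and each library left out in turn. Chosen after seeing the data were the block in the 6 libraries, changes relative to the median change, and leaving out replicate 2 of both genotypes.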

Additional observations from a re-analysis of the deposited data

Results flagged for a closer look

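In 4 families all 3 *mut-16* libraries lay on one side of wild type at 20°C and on the other side at 25°C. The difference between temperatures was not tested, because the tables were scaled apart, and age differs with temperature. CER10-I_CE had a log2 change of -1.24 at 20°C and 0.52 at 25°C, both called (limma). With library totals made equal at 25°C its change there was 0.08, with no call. CELE45 had changes of -0.62 (no call) and 0.42 (called). Its 25°C call ended with RLE (0.32) and TMM factors (0.31) and with equal totals, where the change was -0.03. CELE42 had changes of 0.29 and -0.26 (no call at either), and RTE-1 had changes of 0.11 and -0.15 (no call at either). With equal totals at 25°C, CELE42 and RTE-1 were called lower there (-0.70 and -0.60).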

How the results depend on the processing

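The 31 families higher in *mut-16* at 20°C became 16 with RLE or TMM factors, and the 2 lower became 8 with RLE, 7 with TMM and 4 without *mut-16* replicate 1. Of the 33 calls, 18 remained with RLE and 18 with TMM. Called families at 25°C numbered 37, and 68 with library totals made equal (21 higher, 47 lower). Leaving out each library in turn gave 27 to 39 called, 25 to 36 higher and 2 to 4 lower. The replicate block gave 36 called (34 higher, 2 lower), and 39 in the 6 libraries alone (36 higher, 3 lower). The block changed the calls of TC5B, CER5-I_CE and TIR9TA1A_CE, and within the 6 libraries those of TC5B, CER5-I_CE, CELE45, CER2-1-LTR_CE and CER16-1-LTR_CE (adjusted p = 0.028, limma), and no other call. Relative to the median change, 26 were higher and 3 lower. In the deposited scaling the summed value ran from -0.20 to 0.15 log2 with libraries left out, was 0.27 without CELE45 and stayed without a test. The RLE and TMM factors were larger in every *mut-16* library than in any wild type library, so both lower the summed value. Planned tests on recovered read counts were not run. Depth limits the families with low values, of which 23 were not tested.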
